A study of Mus musculus with 6 samples.

Results

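The genes described here are 35 genes that mark T lymphocytes and natural killer (NK) cells, read in the submandibular salivary gland of NOD mice with and without Myd88. They were taken by gene symbol from the platform annotation, and where a gene had several probe sets the one with the highest mean stood for it. A probe set was found for 31 of the 35, among 19505 named genes in all. Lck, Cd27, Foxp3 and Tcf7 matched none and were not analysed here. The mice were 10-week-old females of a NOD.B6 strain, 3 of the strain labelled NOD.B6-Myd88+/+ and 3 of the strain labelled NOD.B6-Myd88-/-, with 1 Clariom S array of total gland RNA per mouse. No treatment is given in the labels, and they do not say whether the mice were littermates. The comparison addresses which transcripts of the gland differ when Myd88 is missing in a strain prone to autoimmune inflammation of the salivary glands.

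T cells recognise peptides on MHC molecules through a receptor whose signal is carried into the cell by the CD3 chains and the zeta chain. NK cells carry germline-encoded receptors that weigh activating against inhibitory ligands, and both cell types kill through perforin and granzymes and secrete interferon-gamma. In NOD mice, T cells and other lymphocytes gather in foci around the ducts of the salivary glands, and the salivary gland also holds resident innate lymphocytes related to NK cells. Myd88 is the adaptor of most Toll-like receptors and of the interleukin-1 and interleukin-18 receptors. Several of these genes are not exclusive to T or NK cells. Thy1 is also made by fibroblasts and neurons, mouse Cd2 by B cells and Cd4 by some myeloid cells.

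Values are log2 expression values on the authors' scale (robust multi-array average, RMA), and differences are Myd88-/- minus Myd88+/+. The Myd88 probe set read 7.81, 7.86 and 7.53 in the Myd88+/+ glands and 7.33, 6.80 and 7.47 in the Myd88-/- glands. The difference was −0.53 (limma adjusted p = 0.462). No source used here says whether its probes fall inside the deletion, so it cannot check the labels. The gland was recognisable by its epithelial genes, of which 11 of 13 were measured, at mean levels from 11.04 to 19.93. Among them the water channel Aqp5 read 13.98 ± 0.30 and 13.84 ± 0.10 (SD, n = 3 each), and Prol1, a secreted salivary protein, stood at the ceiling of the scale on every array. Array medians lay between 6.0 and 6.1. The distance between an array's 10th and 90th percentiles was 7.10 to 7.30 for Myd88+/+ and 6.83 to 7.13 for Myd88-/- glands. The part of that spread of values in the results was not tested. Values after quantile normalization, which gives all arrays the same spread, are in the closing section. Limma's p-values set each difference against the spread between these 6 mice, moderated by the spread of all tested probe sets.

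The T and NK genes gave low signal in these glands. The 31 genes had mean levels from 3.65 (Zap70) to 7.83 (Cd2), with a median of 5.37, while the 23 antigenomic control probe sets, which match no mouse sequence, had a median of 5.55. Of the 31 genes, 10 had a mean above that median and 21 had a mean under it, where 42.4% of all 22206 tested probe sets also lay. On all 6 arrays 9 of the genes were under it. The control probe sets themselves ran from 3.01 to 6.83 with their base composition, so this border is approximate. Against the median of 5222 negative control probe sets, 6.14, only 7 of the 31 genes stood above. These were Cd247, Cd4, Cd2, Thy1, Icos, Gzma and Klrk1. RMA compresses differences near this level, so their size is uncertain.

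**Figure D1:**
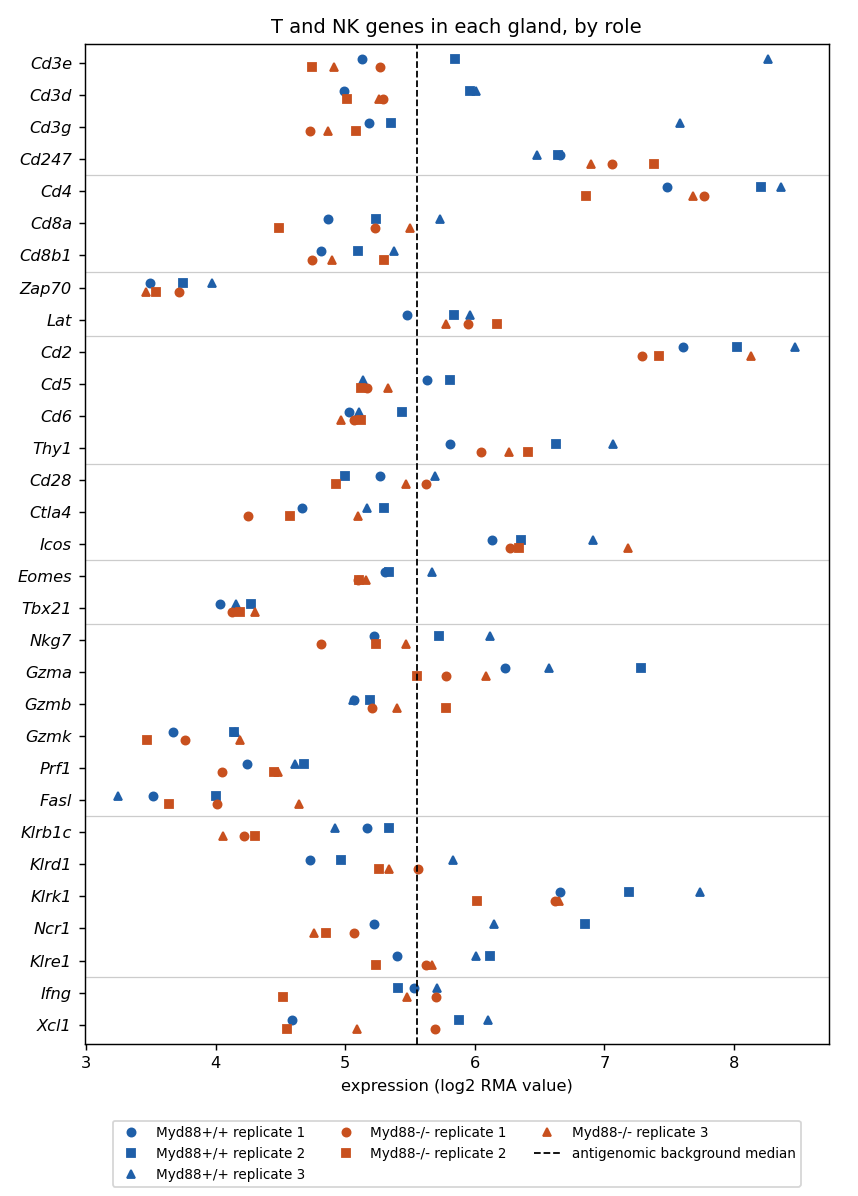
Log2 RMA value of each of the 31 genes in each of the 6 glands, grouped by role with grey lines between roles. Blue marks are Myd88+/+ and orange marks Myd88-/- glands, the mark's shape gives the replicate, and the dashed line is the antigenomic background median of 5.55. Most genes lie on or left of that line, and Cd3e and Cd3g stand out to the right in Myd88+/+ replicate 3.

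No gene of the set passed the test between genotypes. Limma called 0 of 31 at an adjusted p under 0.05, as it called 0 of 22206 probe sets (0% lower and 0% higher), and adjusted p-values of the 31 genes ran from 0.321 to 0.988. At an unadjusted p under 0.05, 4 genes were lower in Myd88-/- glands (Klrb1c, Ncr1, Gzma and Klrk1), against 5.55% of all probe sets, and 1 was higher (Cd247), against 4.5%. Of the 31 genes, 23 had a lower mean in Myd88-/- glands (74.2%, against 47.5% of all probe sets). Their median difference was −0.31, against 0.02 over all probe sets. Of probe sets under the background median, 33.4% were lower, with a median difference of 0.09. Of those above it, 58.0% were lower, with a median difference of −0.06. Of the 10 genes with a mean above background, Cd3e and Klre1 had a Myd88-/- mean under it, so counts among those 10 are not read as a result. In whole-gland RNA, fewer cells of a type and less RNA per cell cannot be told apart.

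Cd3e and Cd3g stood well above background in 1 mouse. Cd3e (probe set TC0900002189.mm.2), a chain needed to assemble the receptor, read 5.13, 5.85 and 8.26 in the Myd88+/+ glands and 5.27, 4.74 and 4.91 in the Myd88-/- glands, in the order of the replicate numbers here and below. Only Myd88+/+ replicates 2 and 3 exceeded the background median, and replicate 1 lay below the highest Myd88-/- gland. The difference of −1.44 ± 0.65 (SE), a 2.71-fold lower level, had a limma adjusted p of 0.505, and it ran from −2.08 without Myd88+/+ replicate 1 to −0.51 without replicate 3. Cd3g, its neighbour in the same gene cluster, read 5.18, 5.35 and 7.58 in Myd88+/+ and 4.73, 5.08 and 4.87 in Myd88-/- glands. The groups did not overlap, by 0.09, and replicate 3 was again far above the rest. The difference of −1.14 ± 0.54 (SE, limma adjusted p = 0.518) was −0.37 without that mouse and −1.57 without Myd88+/+ replicate 1.

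Cd3d and Cd247 are the other chains of the complex. Cd3d, which lies between Cd3g and Cd3e on chromosome 9, read 4.99, 5.96 and 6.01 in Myd88+/+ and 5.29, 5.01 and 5.26 in Myd88-/- glands, so Myd88+/+ replicates 2 and 3 were highest and replicate 1 was the lowest of the 6 glands. The difference was −0.47 ± 0.27 (SE, limma adjusted p = 0.599), from −0.80 without Myd88+/+ replicate 1 to −0.29 without replicate 3. Cd247 encodes the zeta chain, which NK cells use as well. It read 6.66, 6.64 and 6.48 in Myd88+/+ and 7.06, 7.38 and 6.90 in Myd88-/- glands. Every Myd88-/- gland was above every Myd88+/+ gland, and the mouse with the most Cd3e had the least Cd247. The difference was 0.52 ± 0.18 (SE, limma adjusted p = 0.431) and ran from 0.39 to 0.63 without 1 mouse.

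Among the coreceptors, Cd4, which binds MHC class II, was well above background. It read 7.48, 8.21 and 8.36 in Myd88+/+ and 7.77, 6.86 and 7.68 in Myd88-/- glands, a difference of −0.58 ± 0.30 (SE, limma adjusted p = 0.558), from −0.85 without Myd88+/+ replicate 1 to −0.29 without Myd88-/- replicate 2. The groups overlapped, since Myd88+/+ replicate 1 read lower than the 7.77 and 7.68 of Myd88-/- replicates 1 and 3. Cd8a and Cd8b1, the chains of the coreceptor for MHC class I, had means of 5.28 and 5.10 in Myd88+/+ and 5.07 and 4.98 in Myd88-/- glands, all under the background median. Of the 6 glands, only Myd88+/+ replicate 3 exceeded that median for Cd8a, at 5.73, and none did for Cd8b1. Their differences, −0.20 and −0.12, turned to 0.02 and 0.03 without that mouse and were −0.41 and −0.26 without Myd88+/+ replicate 1.

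Of the proteins that carry the receptor's signal inward, the kinase Zap70 read 3.46 to 3.97 in the 6 glands, far under the background median, with a difference of −0.16 (−0.29 without Myd88+/+ replicate 1 and −0.05 without replicate 3). The adaptor Lat, a membrane scaffold, had a Myd88+/+ mean of 5.76 ± 0.25 and a Myd88-/- mean of 5.97 ± 0.19 (SD, n = 3), 0.20 apart, or 0.06 without Myd88+/+ replicate 1 and 0.30 without replicate 3. The next 4 surface proteins tune adhesion and signalling. Cd2, an adhesion receptor, read 7.61, 8.02 and 8.47 in Myd88+/+ and 7.29, 7.42 and 8.13 in Myd88-/- glands, with overlap and a difference of −0.42 ± 0.28 (SE, limma adjusted p = 0.65), from −0.68 without Myd88-/- replicate 3 to −0.20 without Myd88+/+ replicate 3. Thy1 read 5.81, 6.63 and 7.07 against 6.05, 6.41 and 6.26, and the Myd88-/- values lay inside the Myd88+/+ range (−0.26, from −0.61 without Myd88+/+ replicate 1 to 0.02 without replicate 3). Cd5 and Cd6, related scavenger-receptor proteins that dampen receptor signalling, had differences of −0.32 and −0.14. The means of both genes were under the background median in both groups. Without 1 mouse they ran from −0.51 to −0.17 (Myd88+/+ replicates 3 and 2 left out) and from −0.22 to −0.02 (Myd88+/+ replicates 1 and 2 left out).

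The costimulatory and inhibitory receptors showed no common direction. Icos, which supports follicular helper T cells, read 6.13, 6.36 and 6.91 in Myd88+/+ and 6.27, 6.34 and 7.18 in Myd88-/- glands. The 2 ranges were nearly the same, and the difference was 0.13 ± 0.29 (SE, limma adjusted p = 0.909), from −0.16 without Myd88-/- replicate 3 to 0.35 without Myd88+/+ replicate 3. Cd28, the main costimulatory receptor, had a difference of 0.02 at a mean level of 5.33, and Ctla4, its inhibitory relative, had −0.41 with means of 5.05 and 4.64 (−0.64 without Myd88-/- replicate 3 and −0.21 without replicate 1). Both lie under the background median in both groups.

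The transcription factors were close to background. Eomes, a T-box factor of NK cells and memory CD8 T cells, read 5.31, 5.34 and 5.67 in Myd88+/+ and 5.10, 5.11 and 5.16 in Myd88-/- glands. The groups did not overlap, by 0.15, with a difference of −0.31 ± 0.17 (SE, limma adjusted p = 0.575), or −0.20 without Myd88+/+ replicate 3. Eomes lies near Myd88 on chromosome 9, with 10 protein-coding genes between them in the RefSeq annotation of GRCm38.p6, whereas 696 to 698 lie between Myd88 and the Cd3 genes and 734 between Myd88 and Thy1. Whether a chromosome segment that travelled with the mutant allele bears on its value was not tested. Tbx21, the T-box factor of type 1 responses, read 4.15 ± 0.12 and 4.21 ± 0.08 (SD, n = 3 each), under the background median in all 6 glands.

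The NK receptors held 3 of the 4 genes that were lower at an unadjusted p under 0.05. Ncr1 (probe set TC0700000032.mm.2) encodes NKp46, an activating receptor that marks NK cells and related innate lymphocytes. It read 5.22, 6.85 and 6.15 in Myd88+/+ and 5.07, 4.85 and 4.76 in Myd88-/- glands. The groups did not overlap, Myd88+/+ replicate 2 was highest, and no Myd88-/- gland reached the background median. The difference was −1.18 ± 0.35 (SE), a 2.27-fold lower level, with a limma adjusted p of 0.388 and a range of −1.61 to −0.79 without 1 mouse.

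Klrb1c, a lectin-like receptor gene of NK cells, read 5.17, 5.34 and 4.92 in Myd88+/+ and 4.22, 4.30 and 4.06 in Myd88-/- glands. It had the widest gap between groups of the 31 genes, 0.62, and the smallest p, with a difference of −0.95 ± 0.18 (SE, limma adjusted p = 0.321). A two-sided exact permutation test gave p = 0.1, and no smaller p can be had from 6 mice in equal groups. All 6 values lie under the background median. Klrk1 encodes NKG2D, an activating receptor for stress-induced ligands, and read 6.66, 7.19 and 7.74 in Myd88+/+ and 6.62, 6.02 and 6.65 in Myd88-/- glands. The groups were apart by only 0.01, Myd88+/+ replicate 1 standing beside Myd88-/- replicates 1 and 3, and the difference was −0.77 ± 0.29 (SE, limma adjusted p = 0.45), from −1.04 without Myd88+/+ replicate 1 to −0.49 without replicate 3.

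The other receptors of this group did not share that separation. Klre1, which pairs with other lectin-like chains on NK cells, read 5.40 to 6.12 in Myd88+/+ and 5.24 to 5.67 in Myd88-/- glands, a difference of −0.33 (−0.55 without Myd88+/+ replicate 1, and −0.20 without Myd88+/+ replicate 2 or Myd88-/- replicate 2). Klrd1, the CD94 chain that joins NKG2 proteins, read 4.73, 4.97 and 5.83 in Myd88+/+ and 5.56, 5.26 and 5.34 in Myd88-/- glands, a difference of 0.21, from −0.01 without Myd88+/+ replicate 1 to 0.54 without replicate 3. Klre1, Klrd1 and Klrk1 are neighbours on chromosome 6. Lectin-like receptor genes have close relatives, and probe sets of relatives can share signal, so their separate values are uncertain.

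The killing machinery was uneven. Gzma, a granzyme of NK cells and cytotoxic T cells, read 6.23, 7.28 and 6.57 in Myd88+/+ and 5.78, 5.55 and 6.09 in Myd88-/- glands. The groups did not overlap, by 0.13, and the difference was −0.88 ± 0.27 (SE), a 1.84-fold lower level, with a limma adjusted p of 0.394 and a range of −1.11 to −0.59 without 1 mouse. Gzmb, the granzyme that activates caspases, read 5.07, 5.19 and 5.06 in Myd88+/+ and 5.21, 5.78 and 5.40 in Myd88-/- glands. It went the other way by 0.36 ± 0.19 (SE, limma adjusted p = 0.562), with a gap of only 0.02 between the groups and both means under the background median, and was 0.20 without Myd88-/- replicate 2.

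The remaining effector genes overlapped between genotypes. Nkg7, a granule membrane protein, read 5.22, 5.72 and 6.12 in Myd88+/+ and 4.81, 5.24 and 5.47 in Myd88-/- glands, a difference of −0.51 ± 0.26 (SE, limma adjusted p = 0.553), from −0.75 without Myd88+/+ replicate 1 to −0.30 without replicate 3. The pore-forming protein gene Prf1 and the granzyme Gzmk read under 4.7 in every gland, with −0.18 each. Without 1 mouse Prf1 ran from −0.32 to −0.04 (Myd88+/+ replicate 1 and Myd88-/- replicate 1 left out) and Gzmk from −0.37 to −0.01 (Myd88-/- replicates 3 and 2 left out). Fasl, the ligand of the death receptor Fas, read 3.25 to 4.0 in Myd88+/+ and 3.64 to 4.64 in Myd88-/- glands, a difference of 0.51 at a level far under background (0.24 without Myd88-/- replicate 3). The interferon-gamma gene Ifng read 5.53, 5.41 and 5.71 against 5.70, 4.52 and 5.48. Its difference of −0.31 became 0.04 without Myd88-/- replicate 2 and −0.55 without Myd88-/- replicate 1. Xcl1, a chemokine that draws cross-presenting dendritic cells, read 4.59, 5.88 and 6.10 against 5.69, 4.55 and 5.09, with −0.42 ± 0.41 (SE, limma adjusted p = 0.76). That became −0.88 without Myd88+/+ replicate 1, and −0.13 without Myd88+/+ replicate 3 or Myd88-/- replicate 2.

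**Figure D2:**
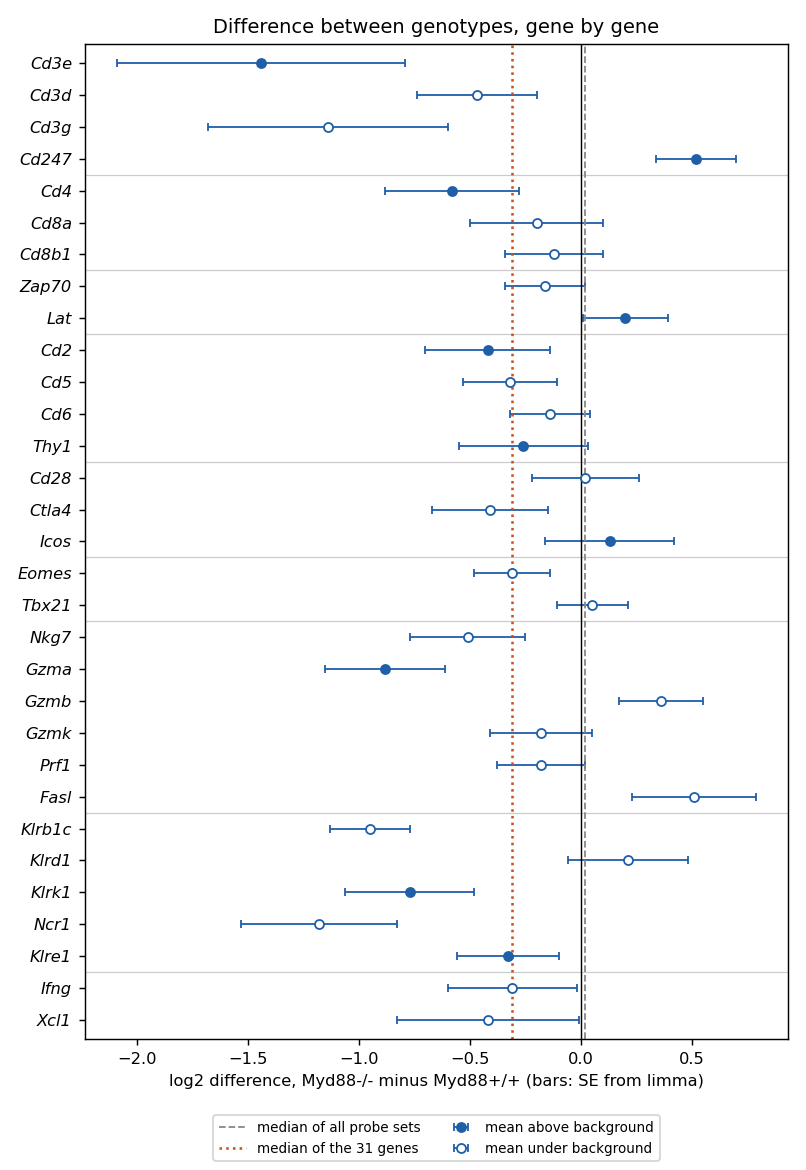
Log2 difference between genotypes (Myd88-/- minus Myd88+/+, 3 mice each) for each of the 31 genes, with bars for the standard error from limma. Filled points have a mean above the antigenomic background median, the grey dashed line is the median of all tested probe sets (0.02) and the red dotted line that of the 31 genes (−0.31). Cd3e, Ncr1 and Cd3g lie farthest left, and Cd247 and Fasl farthest right.

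Promoters of 7 genes are shown, because Runx, T-box and ETS factors are known regulators of T and NK genes. RefSeq promoters (GRCm38.p6) were found for 23 of the 31 genes, and the 250 bases before the start were searched on both strands, where a gene had several starts from the one farthest upstream. The sequences run 5′ to 3′ on the gene's own strand, and capitals mark TGTGGT (Runx) and AGGAAG (ETS) or their reverse complements ACCACA and CTTCCT. Ncr1 (chr7:4337465-4337714, plus strand), Klrk1 (chr6:129623865-129624114, minus strand), Klrb1c (chr6:128788642-128788891, minus strand) and Gzma (chr13:113100982-113101231, minus strand) are shown because they were the 4 lower genes at an unadjusted p under 0.05. Gzmb (chr14:56262335-56262584, minus strand) is shown as the granzyme with the opposite sign. Cd3e (chr9:45009612-45009861, minus strand) and Cd3g (chr9:44980432-44980681, minus strand) stand for the receptor complex.
Ncr1: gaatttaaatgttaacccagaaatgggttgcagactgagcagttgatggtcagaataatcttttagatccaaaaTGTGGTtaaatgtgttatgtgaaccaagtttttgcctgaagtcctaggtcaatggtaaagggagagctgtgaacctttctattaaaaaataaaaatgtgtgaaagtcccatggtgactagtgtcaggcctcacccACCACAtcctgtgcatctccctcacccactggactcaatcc
Klrk1: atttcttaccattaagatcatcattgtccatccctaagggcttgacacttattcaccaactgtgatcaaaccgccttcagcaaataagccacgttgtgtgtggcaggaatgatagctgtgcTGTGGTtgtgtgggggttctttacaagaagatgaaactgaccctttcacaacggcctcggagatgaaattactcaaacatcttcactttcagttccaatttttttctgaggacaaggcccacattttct
Klrb1c: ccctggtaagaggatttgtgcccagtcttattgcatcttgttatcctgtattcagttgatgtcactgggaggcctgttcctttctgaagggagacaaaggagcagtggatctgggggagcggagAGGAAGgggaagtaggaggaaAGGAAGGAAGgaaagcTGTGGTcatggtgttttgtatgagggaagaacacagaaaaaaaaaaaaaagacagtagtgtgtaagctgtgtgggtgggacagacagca
Gzma: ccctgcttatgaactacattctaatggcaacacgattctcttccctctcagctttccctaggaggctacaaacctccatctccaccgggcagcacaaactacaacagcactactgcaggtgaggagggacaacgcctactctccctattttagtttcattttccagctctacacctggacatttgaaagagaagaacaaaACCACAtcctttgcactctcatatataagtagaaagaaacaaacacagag
Gzmb: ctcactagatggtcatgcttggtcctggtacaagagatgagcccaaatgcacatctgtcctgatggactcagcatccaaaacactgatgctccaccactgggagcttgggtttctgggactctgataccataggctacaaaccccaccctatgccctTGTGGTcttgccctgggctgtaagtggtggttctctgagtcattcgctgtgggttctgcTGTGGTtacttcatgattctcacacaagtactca
Cd3e: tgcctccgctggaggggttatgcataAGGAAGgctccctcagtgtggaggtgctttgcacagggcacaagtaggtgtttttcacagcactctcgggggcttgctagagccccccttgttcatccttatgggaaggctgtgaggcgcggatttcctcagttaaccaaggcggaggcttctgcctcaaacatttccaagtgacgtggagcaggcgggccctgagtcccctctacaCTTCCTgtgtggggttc
Cd3g: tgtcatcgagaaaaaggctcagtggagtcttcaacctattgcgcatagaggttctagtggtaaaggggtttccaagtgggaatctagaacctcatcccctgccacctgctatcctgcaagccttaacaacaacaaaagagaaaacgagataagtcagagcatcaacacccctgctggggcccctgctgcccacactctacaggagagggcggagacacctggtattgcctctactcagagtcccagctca

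The Runx letters lay in promoters of cytotoxic genes with either sign of difference. They occurred in 9 of 23 promoters (39.1%), against 14.2% of 27025 promoters of the same length. All 9 belonged to the 12 NK receptor, granule, death ligand and cytokine genes (Nkg7, Gzma, Gzmb, Prf1, Klrb1c, Klrk1, Ncr1, Klre1 and Xcl1), and 0 to the other 11. Ncr1, lower in Myd88-/- glands, and Gzmb, higher there, each held 2 matches. The ETS letters occurred in 13 of 23 promoters (56.5%, against 29.2% of all), with 3 matches in Klrb1c, 2 in Cd3e and none in Cd3g. The T-box letters, GGTGTG or CACACC, occurred in 5 of 23 (21.7%, against 16.2%) and in none of the 7 shown. A match is only a run of letters, and a promoter without one may hold other forms of the site.

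Of the 31 genes, 6 were lower in Myd88-/- glands with no overlap of the groups (Cd3g, Eomes, Gzma, Klrb1c, Klrk1 and Ncr1), against 7.25% of all probe sets, and 2 were higher with no overlap (Cd247 and Gzmb), against 7.84%. Cd3e, Ncr1 and Cd3g were at least 2-fold lower, where 0.829% of all probe sets were, and none of the 31 was at least 2-fold higher, against 0.0721%. The 12 NK markers held 5 of those 6 separated lower genes. Of the 12 NK markers 9 were lower with a median of −0.37, and of the 15 measured T cell markers 11 were lower with a median of −0.20. Without Myd88+/+ replicate 3 those medians were −0.22 and −0.05, and without replicate 1 they were −0.65 and −0.29. The difference between the NK and T cell genes was not tested.

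**Figure D3:**
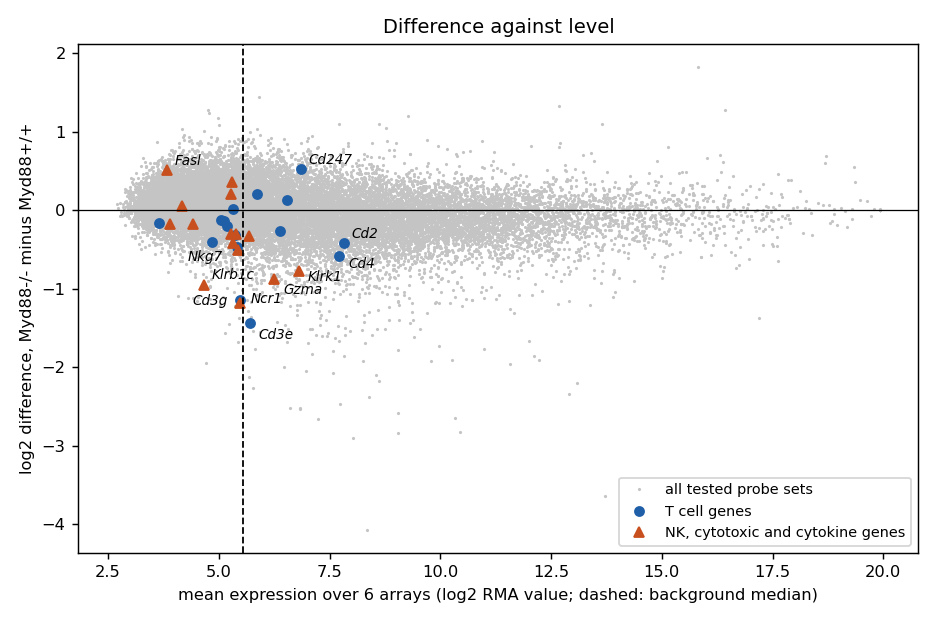
Log2 difference (Myd88-/- minus Myd88+/+) against mean log2 RMA value for 22206 tested probe sets (grey), T cell genes (blue circles) and NK, cytotoxic and cytokine genes (orange triangles). The dashed line is the background median of 5.55. The marked genes crowd around that line, and Cd4, Cd2, Klrk1 and Cd247 are the brightest.

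The Myd88+/+ mice differed among themselves in these genes. The SD was wider in Myd88+/+ than in Myd88-/- glands for 18 of the 31 genes (58.1%, against 45.7% of all probe sets). Myd88+/+ replicate 3 had the highest value of its group in 19 of the 31 genes (61.3%, against 31% of all probe sets), and replicate 1 had it in 1 gene (3.23%, against 37.3%), Cd247. Replicate 1 had the lowest value in 24 genes, a count for which the share over all probe sets was not computed. The median deviation of the 31 genes from their mean over the 6 arrays was −0.22, 0.20 and 0.34 in Myd88+/+ replicates 1, 2 and 3. In Myd88-/- replicates 1, 2 and 3 it was −0.14, −0.27 and −0.04. Myd88+/+ replicate 1 therefore lay inside the Myd88-/- range and replicates 2 and 3 above it.

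Which wild-type mouse was counted moved the result. Without Myd88+/+ replicate 1, 12 of the 31 genes were lower at an unadjusted p under 0.05 (4.63% of all probe sets) and 16 were lower with no overlap (11.2% of all), with a median difference of −0.37. Without Myd88+/+ replicate 3, 4 and 7 were (4.92% and 12.9% of all), with a median of −0.18. None of the 31 passed limma's adjusted test when any 1 mouse was left out.

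Markers of other leukocytes also read lower in Myd88-/- glands, with 0 of the macrophage and 0 of the pan-leukocyte markers past limma's adjusted test and 47.5% of all probe sets lower. Of probe sets above background, 58.0% were lower. At an unadjusted p under 0.05, 5.55% of all probe sets were lower, the share beside each such count in this and the following lists. Of 14 measured macrophage and monocyte markers all 14 were lower, 12 of them at an unadjusted p under 0.05. Their median was −1.03 (−0.85 without Myd88+/+ replicate 3). The summed level was 12.23 to 13.67 in Myd88+/+ and 11.37 to 11.69 in Myd88-/- glands (log2 of the sum). Some genes of that list lie on chromosome 9, as Myd88 does, and the part of a linked segment was not tested. Csf1r, a receptor macrophages depend on, had −1.23 and Adgre1, the F4/80 antigen, −0.81, and 13 of the 14 had a mean above the background median. Of 12 pan-leukocyte markers 11 were lower, 6 at an unadjusted p under 0.05, with a median of −0.74 (−0.43 without Myd88+/+ replicate 3) and summed levels of 15.42 to 15.69 and 15.15 to 15.49. That sum is nearly all Lcp1, an actin-bundling protein singled out here after its values were seen, which read 15.43 ± 0.10 and 15.29 ± 0.19 (SD, n = 3 each). Ptprc, the CD45 antigen of all leukocytes, read 9.28, 9.91 and 11.43 in Myd88+/+ and 8.28, 8.90 and 8.6 in Myd88-/- glands, the same order of Myd88+/+ mice as for Cd3e (−1.62, or −1.0 without Myd88+/+ replicate 3). Coro1a, an actin-binding protein of leukocytes, had −0.76 at a mean of 5.30. The 31 T and NK genes had summed levels of 10.57 to 11.45 and 10.51 to 10.82, which overlap. Of these 31 genes 21 had a mean under the background median, so that sum holds much background signal. Its overlap is therefore not read as a likeness of the genotypes, nor set against the macrophage sum. The part of other leukocytes in the T and NK values was not tested.

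Markers of B cells, plasma cells and dendritic cells were read in the same way, and none passed limma's adjusted test (2, 1 and 2 were lower at an unadjusted p under 0.05). Of 11 measured B cell markers 8 were lower with a median of −0.05, which was −0.20 without Myd88+/+ replicate 1 and 0.06 without replicate 3. Cd79a, a chain of the B cell receptor, read 4.19 ± 0.62 and 3.97 ± 0.17 (SD, n = 3 each), under background on every array. The summed levels were 9.32 to 9.61 in Myd88+/+ and 8.93 to 9.04 in Myd88-/- glands and did not overlap. The brightest gene in them was Blnk, an adaptor that macrophages also make, which had −0.85 without overlap. Of 7 plasma cell genes 3 were lower, with a median of 0.02 that ran from −0.09 to 0.08 without 1 mouse. Jchain, which joins IgA dimers, read 9.72 ± 1.82 and 7.53 ± 1.53 (SD, n = 3 each). Its difference of −2.18 was −1.22 without Myd88+/+ replicate 3, and Mzb1, a chaperone of plasma cells, had 0.20. Of 9 dendritic cell genes 5 were lower, with a median of −0.09 that ran from −0.19 to −0.02 without 1 mouse. Itgax (−0.40) and Flt3 (−0.09) were under background on every array.

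A salivary gland can be taken with an adjoining lymph node, so genes of lymph node stroma and venules were read too. Of 7 measured genes 5 were lower, 1 at an unadjusted p under 0.05 and 0 past limma's adjusted test (median −0.14, or −0.04 without Myd88+/+ replicate 3), with summed levels of 9.64 to 12.46 in Myd88+/+ and 8.84 to 9.14 in Myd88-/- glands. The sum followed Cxcl13, a chemokine of B cell follicles and of lymphoid foci in inflamed glands, which read 8.97, 10.04 and 12.37 in Myd88+/+ and 7.52, 7.47 and 7.88 in Myd88-/- glands. Myd88+/+ replicate 3 was again highest, and the difference of −2.84 was −1.88 without it. The chemokine Ccl21a read 7.54 ± 0.15 and 7.37 ± 0.12 and Ccl19 3.87 ± 0.25 and 3.97 ± 0.27 (SD, n = 3 each), with overlapping groups. The part of lymph node tissue in the T and NK values was not tested. Of the 11 epithelial genes Prol1 and Klk1 were at the ceiling on all 6 arrays, so their differences were fixed at 0, and the list ran from −0.22 to 0.49.

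**Figure D4:**
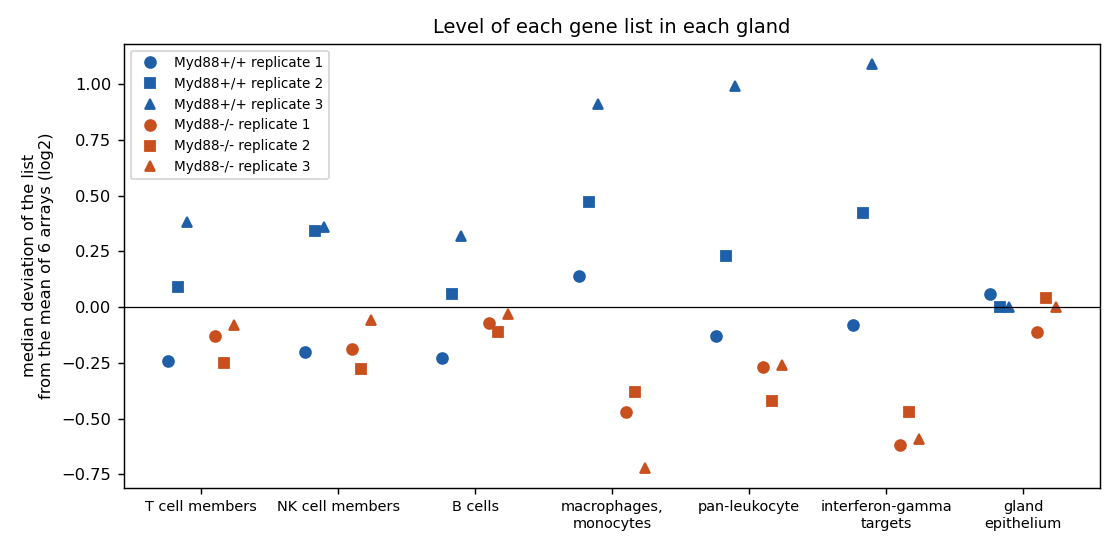
Median deviation of each gene list from its mean over the 6 arrays (log2), for each gland, with Myd88+/+ in blue and Myd88-/- in orange and the mark's shape giving the replicate. Lists are the T and NK cell genes described here, B cells, macrophages and monocytes, all leukocytes, interferon-gamma targets and gland epithelium. In the T and NK lists Myd88+/+ replicate 1 lies among the Myd88-/- glands, in the macrophage list it does not, and the epithelial list stays near 0.

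More of the T cell and NK programmes was read from genes outside the 31. Of 28 measured T cell genes 22 were lower and 6 higher, 0 passed limma's adjusted test, 3 were lower at an unadjusted p under 0.05 and the median was −0.19 (−0.04 without Myd88+/+ replicate 3 and −0.38 without replicate 1). Ms4a4b, a membrane protein of T cells, read 5.57, 5.29 and 7.54 in Myd88+/+ and 5.04, 4.57 and 4.68 in Myd88-/- glands. Myd88+/+ replicate 3 again stood far above the rest, and the difference of −1.37 was −0.67 without it. Il7r, the receptor of a survival cytokine of lymphocytes, had −0.85 and Stat4, which transmits the interleukin-12 signal and here had means under background in both groups, −1.09. Without Myd88+/+ replicate 3 these differences were −0.44 and −0.53, and without replicate 1 they were −0.99 and −1.65. Of 23 measured NK and cytotoxic genes 14 were lower and 9 higher, 0 passed limma's adjusted test, 5 were lower at an unadjusted p under 0.05, and the median was −0.11 (−0.02 without Myd88+/+ replicate 3 and −0.36 without replicate 1). Klrb1b, a close relative of Klrb1c, read 7.73, 7.41 and 8.80 in Myd88+/+ and 6.70, 6.08 and 6.37 in Myd88-/- glands, above background and without overlap (−1.59 ± 0.34, SE, limma adjusted p = 0.321). Fcer1g, a signalling chain used by NK and myeloid cells alike, had −2.08. Slamf7, an adhesion receptor of NK and other blood cells, had −1.95 with a mean under background (−1.26 without Myd88+/+ replicate 3). The genes named from these T cell and NK lists had the smallest unadjusted limma p in each. All of them were lower, so they do not stand for the lists, whose medians are given above.

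Genes tied to residence in tissue and to innate lymphoid cells had 7 of 8 measured genes lower, a median of −0.30 (−0.09 without Myd88+/+ replicate 3 and −0.64 without replicate 1) and 3 genes lower at an unadjusted p under 0.05, with 0 past limma's adjusted test. They included Id2, a repressor needed by innate lymphocytes but abundant in this gland at 14.33 ± 0.40 and 13.54 ± 0.40 (SD, n = 3 each), and the death ligand Tnfsf10 with −0.69 (−0.43 without Myd88+/+ replicate 3). Among 14 partners of the T and NK proteins on other cells 9 were lower and 5 higher, with a median of −0.25, 6 lower at an unadjusted p under 0.05 and 0 past limma's adjusted test. Icosl, the ligand of Icos, had group means of 8.03 ± 0.28 and 7.15 ± 0.28 (SD, n = 3) and a difference of −0.88, although Icos itself had 0.13. B2m, the light chain of MHC class I, had −1.38 and H2-Ab1, which CD4 binds as part of MHC class II, −1.67 (−0.89 without Myd88+/+ replicate 3).

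Genes of interferon-gamma signalling ranged from a difference of −4.07 to one of −0.08. All 13 measured genes of that list were lower in Myd88-/- glands, with a median of −1.21. Of them 8 were lower at an unadjusted p under 0.05, against 5.55% of all probe sets, and 0 passed limma's adjusted test. Cxcl9, a chemokine that attracts T cells, read 7.87, 10.80 and 12.46 in Myd88+/+ and 6.38, 5.79 and 6.74 in Myd88-/- glands. The groups did not overlap, Myd88+/+ replicate 1 was closest to the Myd88-/- glands, and the difference was −4.07 ± 0.91 (SE, limma adjusted p = 0.339). Cxcl10, a related chemokine, had −1.21 with a mean under background, and the kinase Jak2 had −0.98. Without Myd88+/+ replicate 3 the median of the list was −0.84. Ifng was above the background median in only 2 of the 6 glands.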

How the data were processed

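Total RNA of 6 submandibular glands was measured on Clariom S arrays, 1 per mouse, per the labels. The authors deposited log2 RMA values, for which the labels name the Transcriptome Analysis Console. No source used here gives its version, the RMA variant or the genome build. RMA shrinks differences near background. The table held 28846 probe sets, of which 6640 controls were left out and 22206 tested. A single gene symbol stood on 19572 of them in the platform annotation and none on 2634.

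Groups came from titles and strain labels. Limma 3.58.1 in R 4.3.3 compared them without covariates, adjusting p over the whole table by Benjamini-Hochberg, and was checked on simulated data. Single genes also had a two-sided exact permutation test. Summaries used Python 3.11.15. The array number limits precision. Genes named are Myd88, the set, and up to 3 of each other list by p, with the first 2 of each marker list. Lcp1, Klk1 and the Klr genes of the closing section were named after their values were seen. Members and lists were chosen with earlier results of these data known. Alternatives were other normalizations, filters on dim probe sets, variance models, the replicate number as a block, averaged probe sets and leaving out each mouse.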

Additional observations from a re-analysis of the deposited data

How the results depend on the processing

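Signal over background, with 21 of 31 genes under it, and 3 mice a group limit every value. None of 31 genes passed limma's adjusted test under any alternative (smallest adjusted p 0.134). Over all probe sets, 0 calls became 2 with median centring, 4 with an intensity trend and robust variances, and 0 to 5 without 1 mouse. The 4 genes lower at an unadjusted p under 0.05 became 8 with quantile normalization (4.86% of all probe sets). They became 8 with cyclic loess (5.41%), 1 without moderation (3.81%) and 7 with the replicate number as a block (4.66%). Without 1 mouse they became 3 to 12 (3.77% to 7.32%). Filters left 2 of 7 genes without the dimmest 50% and 2 of 10 among probe sets above background. Among genes above background (added after seeing the data) it was also 2 of 10. The 6 separated lower genes (7.25%) became 2, 2 and 2 under those same filters and 6 to 16 without 1 mouse (10.9% to 15.5%). Shares over all probe sets were not computed under the filters. Cd3e and Klre1 passed the background filters through their Myd88+/+ values, so the counts there are not read as a result. The 10 genes above background became 7 against negative controls and 6 with every array above its own median, both added after seeing the data. The median of −0.31 was also −0.31 with quantile normalization, and it ran from −0.38 to −0.18 without 1 mouse. Cd28 turned to −0.06 with quantile normalization, −0.0015 with median centring and −0.06 with cyclic loess, and Tbx21 to −0.04 with quantile and −0.04 with loess. Without 1 mouse, Cd28 ran from −0.14 to 0.23, Icos −0.16 to 0.35, Tbx21 −0.01 to 0.11, Klrd1 −0.01 to 0.54, Cd8a −0.42 to 0.09, Cd8b1 −0.28 to 0.03, Thy1 −0.61 to 0.02 and Ifng −0.55 to 0.04. The other 23 genes kept 1 sign. The cause was not tested. Replicate numbers share only a number: same-number deviations correlated at −0.1131, −0.1549 and −0.0195.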

Other observations

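The lectin-like receptors named Klr, whose genes lie mostly in one cluster on chromosome 6 and which NK cells use to sense MHC class I and stress ligands, were read as a family after the values of Klrb1c and Klrk1 had been seen. The counts therefore leave out Klrb1c, Klrk1, Klrd1 and Klre1. They still hold genes already counted above among the NK and cytotoxic genes, such as Klrb1b and Klri2. The family is therefore not a separate observation. Of the other 22 genes 17 were lower in Myd88-/- glands and 5 higher, where 47.5% of all probe sets were lower. Their median was −0.38 (−0.27 to −0.56 without 1 mouse), and limma's adjusted test called 0. Of the 22, 15 had a mean under the background median. At an unadjusted p under 0.05, 8 were lower, against 5.55% of all probe sets, and 1 was higher (Klrb1, 0.44), against 4.5%. The 5 that were lower with no overlap of the groups, against 7.25% of all probe sets, are named here. Klrb1b had −1.59, Klra16 −1.52, Klri2 −0.90, Klra10 −0.85 and Klra7 −0.61. Klra10 was under background on every array. Close relatives in this family can share probe signal, so the 22 values are not independent.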
